A study of Mus musculus with 105 samples.

Results

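Collagen genes were taken as all genes of the mRNA table whose symbol reads Col, a number, the letter a and a number, which gave 44 of 54532 gene identifiers, of which 32500 had at least 1 count. By the kind of structure their proteins build, 11 are fibrillar collagens, 6 are basement membrane (type IV) collagens and 27 are others. The others comprise 9 fibril-associated collagens with interrupted triple helices (FACIT), 6 beaded-filament (type VI) collagens, 4 transmembrane collagens, 3 short-chain network collagens, 2 multiplexins, the anchoring-fibril collagen Col7a1 and the unclassed Col26a1 and Col28a1. All 44 had coordinates in the RefSeq annotation of GRCm38.p6, the build used for every position given here.

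The series followed the making and loss of microRNAs in mouse cells, and its 105 samples are mostly small-RNA libraries. Messenger RNA was measured in 6 of them, 2 libraries for each of 3 lines. The embryonic stem cell line (ESC) is v6.5, labelled C57BL/6, grown with leukaemia inhibitory factor (LIF) and the inhibitors PD0325901 and CHIR99021. CIMEF are C57BL/6J mouse embryonic fibroblasts that had been kept contact-inhibited for 5 days before treatment began, so that crowding had stopped their division. DMEF are C57BL/6J mouse embryonic fibroblasts that were passaged and went on dividing. The labels give passages 5 to 15, and the mRNA libraries carry no treatment or time label. Nothing in the labels says that the libraries of a line came from separate cultures, so p-values measure the spread between these libraries, which may be technical.

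Collagens are secreted or membrane-anchored proteins of 3 chains wound into a triple helix. Fibrillar collagens are made as procollagens whose ends are trimmed by proteases, after which the trimmed molecules pack into the fibrils of skin, tendon and bone. Type IV collagen forms the sheet-like network of basement membranes, type VI forms beaded filaments beside cells, and FACIT collagens sit on the surface of fibrils. Fibroblasts are the main makers of the fibrillar kinds in connective tissue.

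Collagen mRNA took up 0.0657% ± 0.0085 of all gene counts in ESC, 3.28% ± 0.0729 in CIMEF and 2.65% ± 0.248 in DMEF (SD, n = 2 libraries each). With library totals scaled by edgeR's TMM factors, the mean shares were 0.0582% in ESC, 3.28% in CIMEF and 3.00% in DMEF. Total gene counts ran from 23030907 to 34093791 per library. Fibrillar collagens held 59.2% ± 1.10 of the collagen counts in ESC, 80.3% ± 1.69 in CIMEF and 69.0% ± 1.81 in DMEF. Both CIMEF libraries lay above both DMEF libraries in that fibrillar share, and both ESC libraries lay below all 4 fibroblast libraries. Basement membrane collagens held 6.61% ± 0.500 in ESC, 6.69% ± 1.5 in CIMEF and 8.07% ± 0.567 in DMEF. The CIMEF values overlapped both those of ESC and those of DMEF. The other collagens held 34.2% ± 1.60 in ESC, 13.1% ± 0.186 in CIMEF and 23.0% ± 2.37 in DMEF. The 5 collagens with most counts held between 70.4% and 79.1% of the collagen counts in every library. Col18a1, which encodes the multiplexin from which endostatin is cut, had the most counts of any collagen in both ESC libraries, Col1a2 in both CIMEF libraries and Col1a1 in both DMEF libraries.

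**Figure D1:**
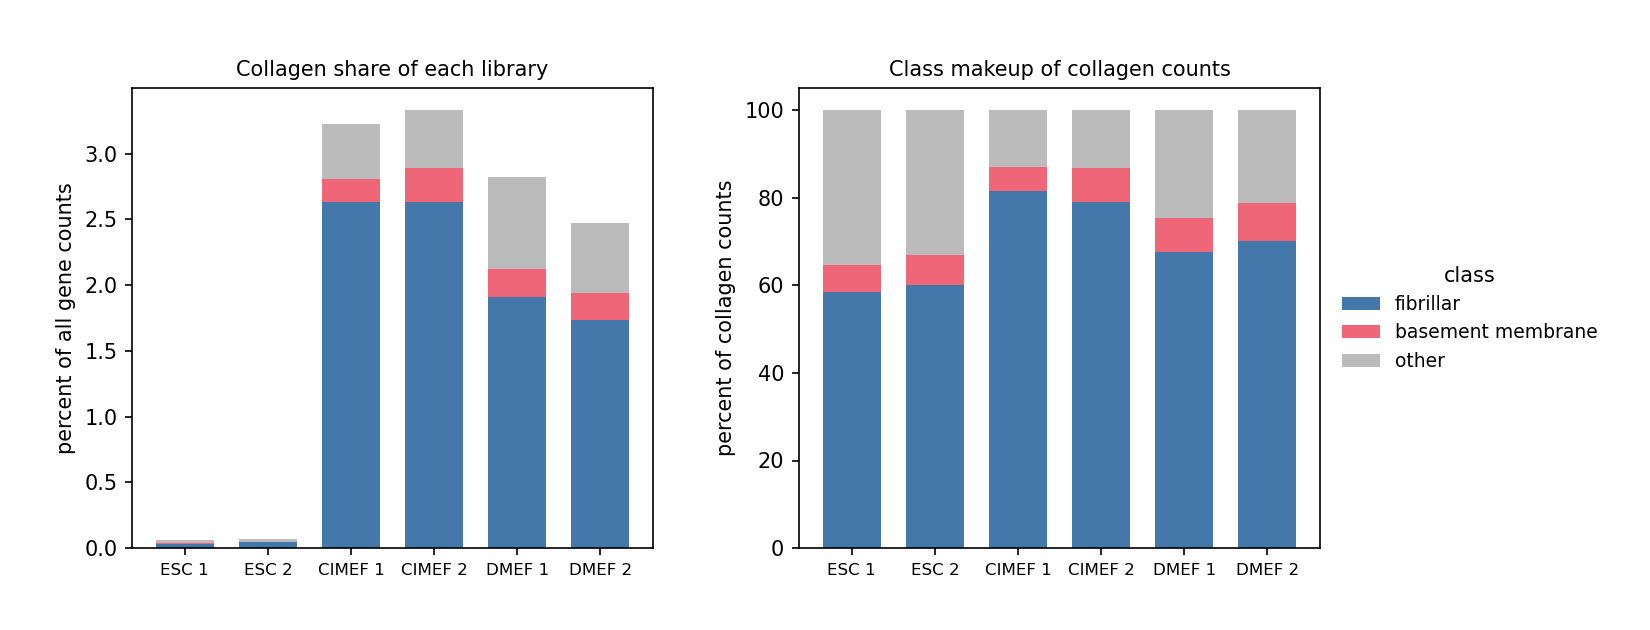
Left, collagen counts as a percent of all gene counts in each of the 6 mRNA libraries, stacked by class. Right, the same counts as a percent of the collagen counts of each library. The 2 ESC bars on the left are below 0.1%, and the 2 CIMEF bars and the 2 DMEF bars lie between 2.47% and 3.33%.

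Levels are given as CPM, the count divided by the library total after edgeR's TMM scaling and multiplied by 1000000, and adjusted p-values come from edgeR's quasi-likelihood test with Benjamini-Hochberg adjustment over 18094 genes, with a call at an adjusted p under 0.05. Of the 44 collagens, 39 had a count in ESC, 42 in CIMEF and 42 in DMEF, and 36 were counted in all of them. The filter on low counts left 37 collagens, of which 9 passed through 1 line alone: Col6a6, Col11a2, Col23a1 and Col25a1 through CIMEF, Col6a5, Col13a1, Col22a1 and Col26a1 through ESC and Col28a1 through DMEF. Because the filter kept these 9 for their level in 1 line, their calls in contrasts with that line are given as values and support nothing. Col19a1, Col24a1, Col4a3, Col4a4, Col6a4, Col9a1 and Col9a3 were not tested. Among these were Col4a3 and Col4a4, chains of the glomerular basement membrane: Col4a3 was read 25 times in CIMEF and 10 times in DMEF, Col4a4 35 times in CIMEF and 12 times in DMEF, and neither in ESC. Col9a1, a cartilage FACIT chain, had 1 count in all, in ESC.

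**Figure D2:**
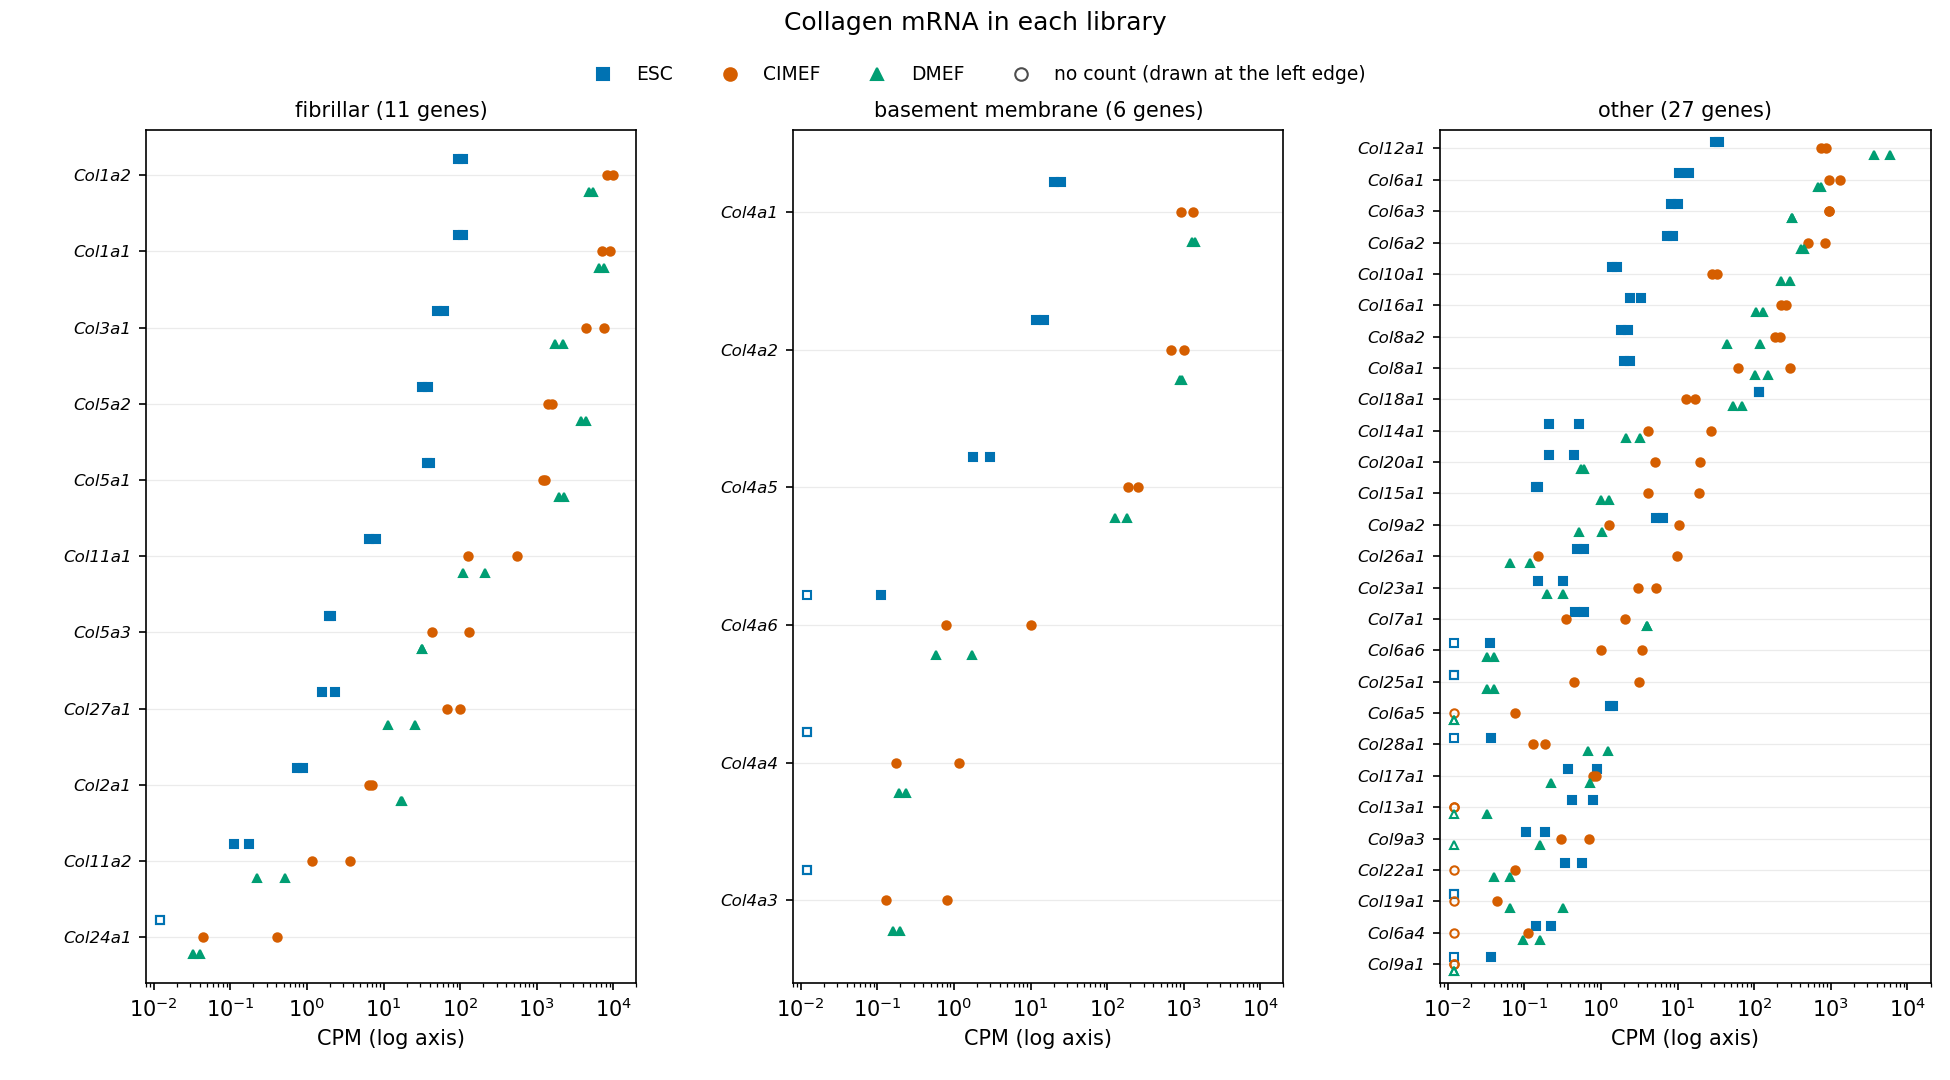
CPM of each of the 44 collagens in each library on a log axis, 2 symbols per line, with open symbols at the left edge for libraries without a count. Most blue ESC squares lie far left of the fibroblast symbols, with Col18a1, Col9a2, Col6a5, Col13a1 and Col22a1 among the exceptions.

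The labels were checked against marker genes. The 8 stem cell markers, Pou5f1, Sox2 and Nanog among them, summed to 4297 and 4242 CPM in ESC, 50.1 and 54.9 in CIMEF and 49.7 and 55.5 in DMEF. Their levels in the fibroblasts ran from 0.613% to 1.31% of those in ESC, except for Klf2 at 13.9% in CIMEF and 12.7% in DMEF. The 9 fibroblast markers summed to 2276 and 2267 CPM in ESC, 12393 and 9575 in CIMEF and 20125 and 18634 in DMEF. Between the fibroblasts they did not move together. The abundant Fn1 and Vim were the 2 called lower in CIMEF, while 4 were called higher, the receptor genes Pdgfra and Pdgfrb among them. Of the 7 osteoblast markers, which summed to 96.6 and 139 CPM in CIMEF and 4.44 and 5.02 in DMEF, Phex carried nearly all of the CIMEF level with 88.8 and 136 CPM, while Bglap2 and Ibsp had no count there. The chondrocyte list summed to 24.5 and 41.0 CPM in CIMEF and 29.3 and 30.2 in DMEF, with Matn1 and Snorc at 0 in both. In bulk RNA, fewer cells of a type and less RNA per cell cannot be told apart.

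The 2 CIMEF libraries stood further apart from each other in collagens than in other genes. Of the 37 collagens tested, 35.1% differed more than 2-fold between the CIMEF libraries, 11 of them higher in library 1 and 2 in library 2, against 13.4% of all genes tested. The same share was 5.41% in ESC, against 2.4% of all genes, and 10.8% in DMEF, against 6.10% of all genes. Col11a1, a fibrillar chain of cartilage and of fine fibrils, had 548 and 128 CPM in CIMEF libraries 1 and 2, Col8a1, a short-chain collagen of vessel walls and the cornea, had 297 and 60.6 CPM, and Col26a1 had 0.149 and 9.93 CPM. Of the 9 fibroblast markers, 4 also differed more than 2-fold between these libraries. Thy1, with 36.2 and 1.18 CPM, was higher in library 1. Pdgfra, with 149 and 506 CPM, S100a4, with 19.6 and 64.7 CPM, and Twist2, with 3.79 and 14.1 CPM, were higher in library 2. The part of these markers in the collagen values was not tested.

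Between the 2 fibroblast states, the major fibrillar chains Col1a2 and Col3a1 were higher in CIMEF, Col5a1 and Col5a2 of type V collagen, which nucleates fibrils, were lower, Col1a1 and the type IV chains did not pass the test, and the FACIT collagen Col12a1 and the network collagen Col10a1 were the most strongly lower among well-counted genes. Of the 37 collagens tested, 17 were higher in CIMEF than in DMEF, beside 19.5% of all genes tested, and 7 were lower, beside 21.1% of all genes. Of these, 4 of the higher and 1 of the lower collagens had passed the low-count filter through the line in which they were high. The median log2 difference was 0.83 over the collagens tested and 0.00 over all genes. By class, 5 of the 10 fibrillar collagens tested were higher and 3 lower, 0 of the 4 basement membrane collagens passed in either direction under edgeR, and 12 of the 23 others were higher and 4 lower. The basement membrane count was also 0 at an unadjusted p under 0.05 and under DESeq2, but 2 were called higher with no filter on low counts, 1 without CIMEF replicate 1 and 3 without CIMEF replicate 2, where 1 was also called lower. The median log2 difference was 0.94 for fibrillar, 0.21 for basement membrane and 1.02 for other collagens tested. Of the 23 others in that median, 8 passed the low-count filter through 1 line alone, as did 1 of the 10 fibrillar collagens. Medians without these members were not computed, so the order of the classes is not a result. The fibrillar median was 0.45 without CIMEF replicate 1, and that of the other collagens 1.61 without DMEF replicate 1. Without DMEF replicate 2 the count of higher collagens fell to 4, and without DMEF replicate 1 it was 10. The fibrillar count was 1 and 3 in these fits and that of the other collagens 3 and 7, and the fibrillar count was also 3 with only the 2 lines compared. Over all genes the count of higher calls also fell without DMEF replicate 2, to 1605 of 19407 tested, against 3528 of 18094 with all libraries. Col6a3 and Col27a1 kept their call as higher in each of the 6 fits that left out 1 library, as did 6 of the 7 lower collagens, all but Col28a1. Col23a1 did so too, but it was tested only through its CIMEF level.

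**Figure D3:**
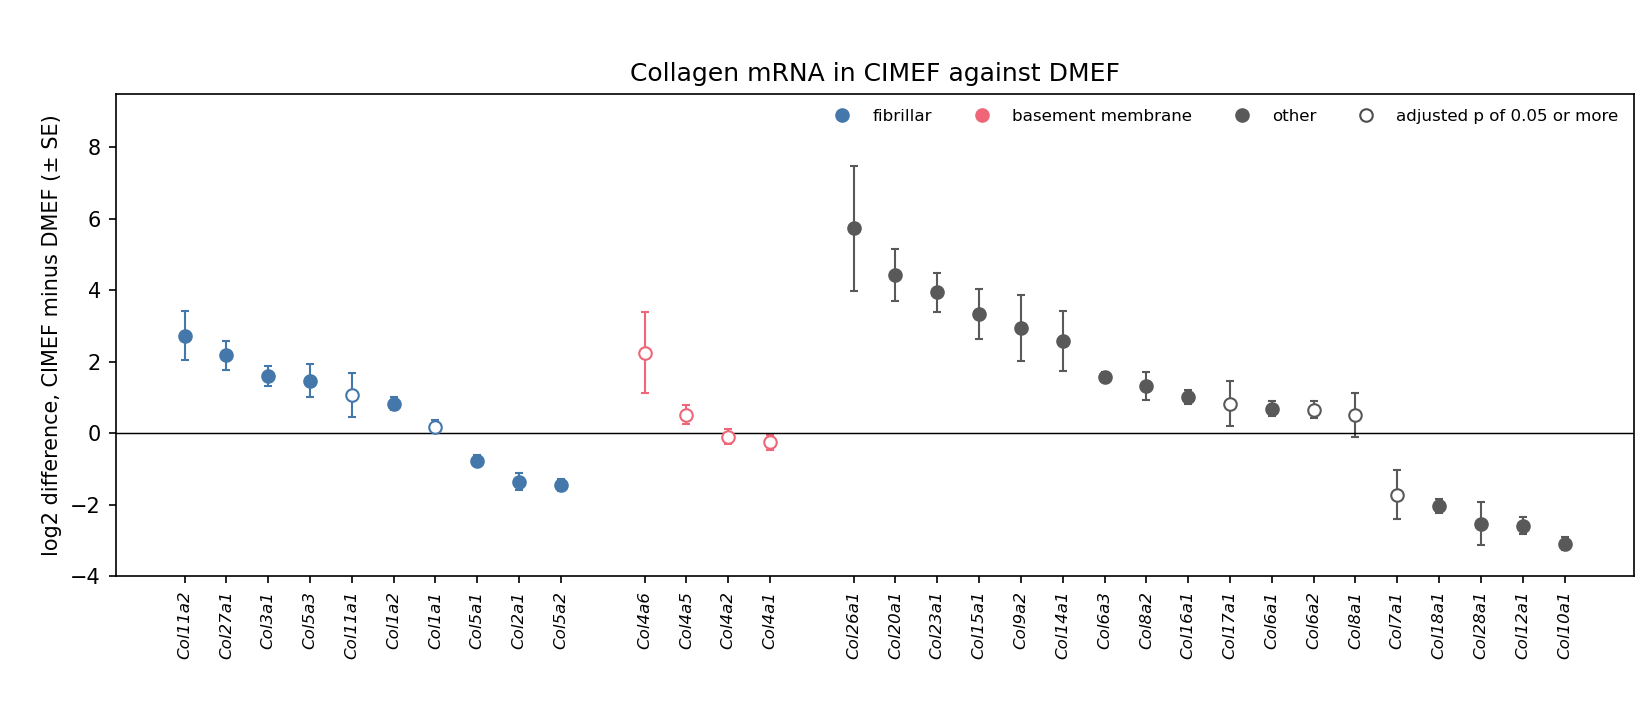
Fitted log2 difference, CIMEF minus DMEF, with its standard error for 32 collagens by class, open circles marking an adjusted p of 0.05 or more. The 5 tested collagens with 3 or fewer counts in a line are not drawn; both signs occur among the fibrillar and the other collagens, and all 4 basement membrane circles are open.

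Type I collagen, the main fibril former of skin and bone, is built from 2 chains of Col1a1 and 1 of Col1a2. Col1a2 (chr6:4505618-4541543) had 8202 and 9940 CPM in CIMEF, against 5449 and 4830 CPM in DMEF. Both CIMEF libraries were above both DMEF libraries, with a log2 difference of 0.82 ± 0.18 (SE) and an adjusted p of 0.0112. Without DMEF replicate 2 that adjusted p was 0.061. Its partner Col1a1 (chr11:94936224-94953042) had 7067 and 8972 CPM in CIMEF, against 7643 and 6555 CPM in DMEF, so the libraries of the lines overlapped and the log2 difference of 0.18 ± 0.19 did not pass, with an adjusted p of 0.475. Col3a1 (chr1:45311538-45349706), the type III chain of pliable tissues, had 7435 and 4446 CPM in CIMEF, against 2176 and 1746 CPM in DMEF. It was higher in both CIMEF libraries, with a log2 difference of 1.60 ± 0.27 and an adjusted p of 0.00511, which was 0.0508 without DMEF replicate 2.

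The windows around the start sites of Col1a2 and Col3a1 are shown as those of the 2 most abundant fibrillar genes called higher in CIMEF. RefSeq windows of GRCm38.p6, each from 250 bases before to 50 bases after a start, existed for 35 of the 44 collagens, 38 windows in all, and none was at hand for Col1a1. Windows were searched on both strands for the TATA motif TATAAA, for the CCAAT box (letters CCAAT) and for the GC box GGGCGG, and capitals mark the matches. Col1a2 (chr6:4505368-4505667, plus strand) held 2 CCAAT matches and 2 GGGCGG matches, and Col3a1 (chr1:45311288-45311587, plus strand) held 1 TATAAA match.
Col1a2: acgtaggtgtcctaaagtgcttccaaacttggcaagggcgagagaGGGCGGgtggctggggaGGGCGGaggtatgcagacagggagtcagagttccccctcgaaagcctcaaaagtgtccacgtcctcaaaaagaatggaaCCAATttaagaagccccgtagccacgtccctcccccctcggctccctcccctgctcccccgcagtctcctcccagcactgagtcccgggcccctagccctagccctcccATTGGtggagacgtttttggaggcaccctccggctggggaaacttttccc
Col3a1: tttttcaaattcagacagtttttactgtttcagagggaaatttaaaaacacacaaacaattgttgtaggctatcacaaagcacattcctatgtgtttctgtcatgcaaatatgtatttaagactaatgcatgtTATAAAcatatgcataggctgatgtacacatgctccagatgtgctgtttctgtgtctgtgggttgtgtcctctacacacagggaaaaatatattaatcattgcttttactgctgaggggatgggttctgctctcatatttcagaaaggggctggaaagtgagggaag
No matches of different motifs overlapped in these windows. Over the 38 collagen windows, TATAAA was found in 5, beside 13.6% of all 32851 windows, CCAAT in 13, beside 37.4%, and GGGCGG in 23, beside 35.7%. The median GC content was 61.3% for fibrillar, 63.3% for basement membrane and 58.7% for other collagens, and 52.7% for all genes. Col3a1 had the lowest GC content of the collagen windows, at 37.7%. A match describes letters in a window and does not show binding.

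Type V collagen starts the assembly of fibrils and limits their width. Col5a1 had 1281 and 1214 CPM in CIMEF, against 2297 and 1951 CPM in DMEF, and Col5a2 had 1416 and 1561 CPM in CIMEF, against 4380 and 3801 CPM in DMEF. Both fell beyond the spread between libraries, by 0.77 ± 0.15 for Col5a1 (adjusted p = 0.00794) and by 1.46 ± 0.17 for Col5a2 (adjusted p = 0.00149) on the log2 scale. The third chain, Col5a3, went the other way, with 132 and 42.7 CPM in CIMEF, against 31.6 and 31.5 CPM in DMEF. Its log2 difference was 1.47 ± 0.46, with an adjusted p of 0.0396, and the call was lost without either DMEF library, with adjusted p-values up to 0.188. Col27a1, a fibrillar collagen known from cartilage, had 66.7 and 99.9 CPM in CIMEF, against 25.5 and 11.3 CPM in DMEF, and was higher by 2.18 ± 0.41 (adjusted p = 0.00686). Col2a1, the main collagen of cartilage, had 7.06 and 6.40 CPM in CIMEF, against 17.5 and 17.0 CPM in DMEF, and was lower with a log2 difference of -1.36 ± 0.23 (adjusted p = 0.00512). Among the type XI chains, Col11a2 was higher at 3.68 and 1.18 CPM in CIMEF, against 0.520 and 0.226 CPM in DMEF (log2 difference 2.72 ± 0.68), and Col11a1 did not pass (1.07 ± 0.62, adjusted p = 0.203). Without CIMEF replicate 1, Col11a1 stood at -0.27, and the call of Col11a2 was lost without that library or either DMEF library.

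Type IV collagen of most basement membranes is a trimer of 2 Col4a1 chains and 1 Col4a2 chain, whose genes lie head to head on chromosome 8. Col4a1 (chr8:11198423-11312889) had 915 and 1313 CPM in CIMEF, against 1388 and 1278 CPM in DMEF. Col4a2 (chr8:11312805-11449287) had 691 and 1021 CPM in CIMEF, against 950 and 891 CPM in DMEF. The libraries of the 2 lines overlapped for both genes, and the log2 differences of -0.26 ± 0.21 and -0.10 ± 0.22 had adjusted p-values of 0.341 and 0.721. In each line the same library was the higher one for both chains. Col4a5, a chain of the kidney and other basement membranes on the X chromosome, had 189 and 253 CPM in CIMEF, against 181 and 128 CPM in DMEF (0.52 ± 0.26, adjusted p = 0.148). Its neighbour Col4a6, whose start lies 1343 bases away, had 10.0 and 0.784 CPM in CIMEF, against 1.72 and 0.580 CPM in DMEF, and its sign turned without CIMEF replicate 1.

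The start sites taken for the windows of Col4a1 and Col4a2 are 21 bases apart on opposite strands. The gene coordinates given above instead put the start of Col4a1, on the minus strand, at 11312889, outside the stretch shown. That stretch is the 78 bases that both windows share (chr8:11312777-11312854, plus strand), and where transcription starts was not tested. Capitals mark the single GGGCGG match in the stretch.
Col4a1 and Col4a2 shared window: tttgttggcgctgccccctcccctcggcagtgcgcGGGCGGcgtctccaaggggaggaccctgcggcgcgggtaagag
The stretch holds no TATAAA and no whole CCAAT on either strand, and its GC content is 73.1%. Its first base is the last base of a CCAAT match of the Col4a2 window, which the end of the Col4a1 window cuts. The full Col4a1 and Col4a2 windows hold 1 CCAAT match each, so the lack of CCAAT in the stretch depends on where the windows end.

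Type VI collagen forms filaments that link cells to the interstitial matrix. Col6a3 had 937 and 947 CPM in CIMEF, against 316 and 316 CPM in DMEF, and was higher by 1.58 ± 0.14 (adjusted p = 0.000854). Col6a1 had 943 and 1335 CPM in CIMEF, against 672 and 747 CPM in DMEF (0.68 ± 0.22, adjusted p = 0.0435), and its call was kept in 1 of the 6 fits without a library. Col6a2 had 502 and 838 CPM in CIMEF, against 407 and 447 CPM in DMEF, and did not pass, with 0.65 ± 0.24 and an adjusted p of 0.0695. Col6a6, another type VI chain, had 116 counts in CIMEF and 2 in DMEF, a ratio of 65.2 with a 95% exact binomial interval of 17.6 to 545, and its call was lost without DMEF replicate 2. These intervals cover counting error only. Col6a5 had 2 counts in CIMEF and 0 in DMEF and Col6a4 had 3 and 7, so neither shows a difference at this depth.

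Among collagens that sit on fibrils, Col12a1 (chr9:79598987-79721141), a long FACIT chain of tendon and ligament, had 863 and 742 CPM in CIMEF, against 5947 and 3715 CPM in DMEF. It fell by 2.59 ± 0.25 on the log2 scale (adjusted p = 0.000922), and both CIMEF libraries were below both DMEF libraries. Other FACIT genes were higher in CIMEF. Col14a1 had 27.7 and 4.05 CPM in CIMEF, against 3.20 and 2.09 CPM in DMEF (2.59 ± 0.84, adjusted p = 0.0452), Col16a1 had 257 and 222 CPM, against 131 and 105 CPM (1.02 ± 0.19, adjusted p = 0.00743), and Col20a1 had 19.7 and 5.14 CPM, against 0.601 and 0.548 CPM (4.43 ± 0.72, adjusted p = 0.00448). Both CIMEF libraries were above both DMEF libraries for all 3 genes, and the calls of Col14a1 and Col20a1 did not outlast the loss of DMEF replicate 2, nor did that of Col16a1 (adjusted p = 0.0544). That of Col14a1 was also lost without DMEF replicate 1 or CIMEF replicate 1. Col9a2, a cartilage FACIT chain, had 10.5 and 1.26 CPM in CIMEF, against 1.04 and 0.515 CPM in DMEF (2.93 ± 0.92, adjusted p = 0.0414). Its call was lost without CIMEF replicate 1 or either DMEF library, with adjusted p-values up to 0.238.

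Of the short-chain collagens, Col10a1 (chr10:34389981-34397085), the collagen of hypertrophic cartilage, had 32.3 and 28.03 CPM in CIMEF, against 291 and 224 CPM in DMEF. Its log2 difference of -3.09 ± 0.19 (adjusted p = 0.000352) was the most negative of the collagens tested. Acan, a cartilage matrix gene of the chondrocyte list, was also lower, at 0.669 and 1.22 CPM in CIMEF, against 13.1 and 11.7 CPM in DMEF, while Sox9 of the same list was higher, at 16.6 and 20.7 CPM, against 6.05 and 9.79 CPM; their part in the Col10a1 value was not tested. Col8a2 had 217 and 187 CPM in CIMEF, against 118 and 44.8 CPM in DMEF (1.32 ± 0.40, adjusted p = 0.0365, and 0.0537 without CIMEF replicate 1), and Col8a1 did not pass with all libraries (0.50 ± 0.62, adjusted p = 0.545). Without CIMEF replicate 1, Col8a1 was called lower at -1.001, with an adjusted p of 0.017. The anchoring-fibril collagen Col7a1, which ties the basement membrane of skin to the dermis, had 2.05 and 0.348 CPM in CIMEF, against 4.04 and 3.99 CPM in DMEF, and did not pass (-1.73 ± 0.68, adjusted p = 0.0826).

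The 2 multiplexins, proteoglycan-like collagens of basement membrane zones, differed in opposite directions. Col15a1 had 18.8 and 4.14 CPM in CIMEF, against 1.00 and 1.26 CPM in DMEF (3.34 ± 0.70, adjusted p = 0.0103), and Col18a1 (chr10:77052178-77166530) had 16.8 and 12.7 CPM in CIMEF, against 52.8 and 68.4 CPM in DMEF (-2.03 ± 0.20, adjusted p = 0.000994). The call of Col15a1 was lost without either DMEF library, with adjusted p-values up to 0.0856, and that of Col18a1 was kept. Among the transmembrane collagens, which shed their triple-helical part from the cell surface, Col23a1 had 3.01 and 5.27 CPM in CIMEF, against 0.200 and 0.322 CPM in DMEF (3.94 ± 0.54, adjusted p = 0.00259). Col25a1 had 84 counts in CIMEF and 2 in DMEF, a ratio of 47.2 with an interval of 12.7 to 396, with 0.446 and 3.13 CPM in the CIMEF libraries, and its call was lost without either DMEF library. Col17a1, the hemidesmosome collagen of epithelia, did not pass (0.82 ± 0.64, adjusted p = 0.331). Col13a1 had no count in CIMEF and 1 in DMEF, and Col22a1 had 2 and 3. Of the unclassed genes, Col26a1 was called higher on 1 library, since CIMEF replicate 1 had 0.149 CPM and replicate 2 had 9.93 CPM, against 0.120 and 0.0644 CPM in DMEF, and without CIMEF replicate 2 its adjusted p was 0.588; the call was also lost without either DMEF library. Col28a1 was lower, at 0.186 and 0.131 CPM in CIMEF, against 1.24 and 0.676 CPM in DMEF (-2.54 ± 0.60, adjusted p = 0.0161), and lost its call without either DMEF library.

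Chains of 1 trimer were set beside each other as ratios of read counts within a library. Exon lengths were not at hand, so the size of a ratio depends on transcript length and says nothing on chain stoichiometry, while the same ratio can be compared across libraries. Col1a1/Col1a2 was 1.02 ± 0.00224 in ESC, 0.882 ± 0.029 in CIMEF and 1.38 ± 0.0323 in DMEF (SD, n = 2). The 3 lines did not overlap in it. Col5a1/Col5a2 was 1.12 ± 0.0754 in ESC, 0.841 ± 0.0899 in CIMEF and 0.519 ± 0.00779 in DMEF, again without overlap between lines. Col6a3/Col6a1 was 0.748 ± 0.0616 in ESC, 0.852 ± 0.201 in CIMEF and 0.446 ± 0.0334 in DMEF, with ESC and CIMEF overlapping and both above DMEF. Col4a1/Col4a2 was 1.68 ± 0.0439 in ESC, 1.30 ± 0.0265 in CIMEF and 1.45 ± 0.0195 in DMEF, without overlap between lines, and Col6a1/Col6a2 overlapped across lines at 1.54 ± 0.155 in ESC, 1.73 ± 0.201 in CIMEF and 1.66 ± 0.0131 in DMEF. Col8a1/Col8a2 could not be placed, since it was 1.36 and 0.324 in the CIMEF libraries and 1.29 and 2.26 in the DMEF libraries. Ratios were not tested.

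**Figure D4:**
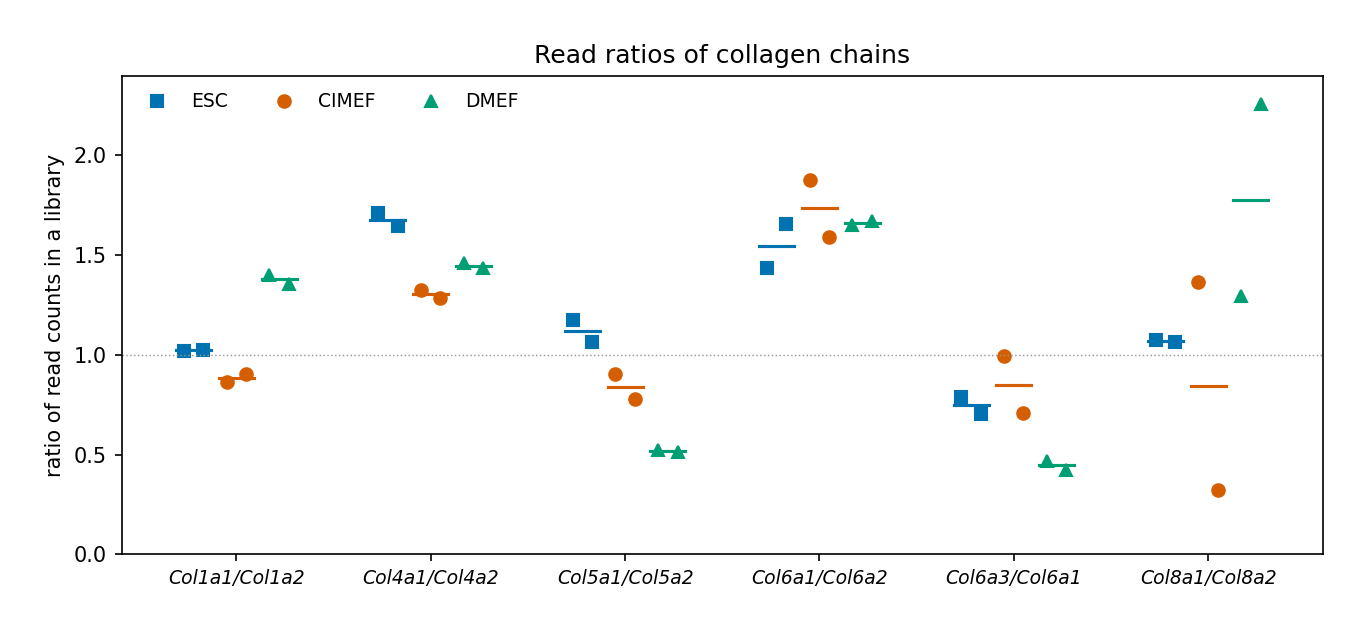
Ratio of the read counts of chain pairs in each library, 2 symbols per line with a bar at their mean. Col1a1/Col1a2 separates the 3 lines, with DMEF highest at 1.36 and 1.40, whereas the 2 CIMEF values of Col8a1/Col8a2 are 1.36 and 0.324.

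Embryonic stem cells had little collagen mRNA of nearly every kind that fibroblasts make, while Col18a1 was higher in them than in both CIMEF and DMEF. Both contrasts of ESC use the same 2 ESC libraries. Of the 37 collagens tested, 5 were higher in ESC than in DMEF, beside 30.3% of all genes tested, and 24 were lower, beside 30.5% of all genes. Of the 5, Col6a5, Col13a1 and Col22a1 passed the low-count filter through ESC alone, and of the 24, Col28a1 passed it through DMEF alone. Against CIMEF, 4 were higher in ESC, beside 38.2% of all genes, and 29 were lower, beside 37.7% of all genes. The 4 include Col6a5, Col13a1 and Col22a1, kept through ESC alone. The 29 include Col6a6, Col11a2, Col23a1 and Col25a1, kept through CIMEF alone. The median log2 difference of the collagens tested was -4.40 for ESC minus DMEF and -5.43 for ESC minus CIMEF (-5.42 with genes at no count in a line set to their bound), beside 0.06 over all genes in each. Of the 10 fibrillar collagens tested, 0 were higher in ESC, also at an unadjusted p under 0.05 and under DESeq2. In ESC 9 were lower than in DMEF and 10 lower than in CIMEF, the latter with Col11a2 included. Of the 4 basement membrane collagens tested, 3 were lower in ESC than in DMEF and 4 lower than in CIMEF; the count against DMEF was 5 under DESeq2 and 6 without CIMEF replicate 2 or with no filter, where more of the class were tested. Of the 23 others, 5 passed as higher and 12 as lower against DMEF, and 4 and 15 against CIMEF. Under DESeq2 the number higher in ESC than in DMEF was 3, and leaving out DMEF replicate 1 or ESC replicate 2 gave 2 and leaving out DMEF replicate 2 gave 3. Among the collagens called lower in ESC, Col14a1, Col15a1 and Col7a1 lost their call against DMEF without either DMEF library or without ESC replicate 1, the first 2 also without ESC replicate 2, and Col28a1 lost its call against CIMEF in each of the 6 fits that left out 1 library.

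Among the fibrillar chains, Col1a1 had 94.97 and 111 CPM in ESC, 7067 and 8972 in CIMEF and 7643 and 6555 in DMEF. Its log2 difference was -6.29 for ESC minus CIMEF and -6.11 ± 0.23 for ESC minus DMEF (adjusted p = 3.58e-06). Col3a1 had 49.9 and 62.1 CPM in ESC, with a log2 difference of -6.73 against CIMEF (adjusted p = 6.81e-06) and -5.13 against DMEF. Col5a2 had 31.6 and 38.3 CPM in ESC, with a log2 difference of -6.87 ± 0.21 against DMEF (adjusted p = 2.95e-06). Col11a2 was the only fibrillar chain tested that did not pass between ESC and DMEF (adjusted p = 0.221). Col4a1 had 20.3 and 25.02 CPM in ESC and Col4a2 had 11.9 and 15.2 CPM, with log2 differences of -5.88 and -6.09 against DMEF and -5.62 and -5.98 against CIMEF. The largest falls against DMEF were in Col10a1, at 1.37 and 1.64 CPM in ESC and a log2 difference of -7.42 ± 0.24, and in Col12a1, at 31.0 and 34.3 CPM and -7.21 ± 0.31.

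Apart from Col18a1, the collagens that were well counted in fibroblasts had low levels in ESC. Of the 23 collagens with a mean of at least 10 CPM in CIMEF, the ESC level ran from 0.942% (Col3a1) to 4.99% (Col10a1) of the CIMEF level with a median of 1.58%, except for Col18a1 at 787%. Of the 21 with at least 10 CPM in DMEF, it ran from 0.584% (Col10a1) to 10.6% (Col27a1) with a median of 1.86%, again except for Col18a1, at 192%. The medians against CIMEF were 2.22% for fibrillar, 1.58% for basement membrane and 1.24% for other collagens, those against DMEF were 2.85%, 1.53% and 1.86% in the same order, and classes were not tested against each other. In the opposite direction, the stem cell markers in the fibroblast libraries had median levels of 0.760% of ESC in CIMEF and 0.869% in DMEF. Whether the collagen reads of the ESC libraries come from the stem cells or from fibroblast RNA or reads was not tested, and this bears on the ESC levels and the ESC chain ratios given here. Of the fibroblast markers, Pdgfra at 2.33 and 2.79 CPM and Prrx1 at 6.90 and 8.94 CPM were low in ESC too, and Fn1, which encodes fibronectin, held most of the ESC sum with 1737 and 1717 CPM.

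Col18a1 had 117 and 116 CPM in ESC, 16.8 and 12.7 CPM in CIMEF and 52.8 and 68.4 CPM in DMEF. The 3 lines did not overlap, and the gene was higher in ESC by 2.97 ± 0.21 than in CIMEF (adjusted p = 2.32e-05) and by 0.94 ± 0.19 than in DMEF (adjusted p = 0.00457). Col9a2 had 5.18 and 6.40 CPM in ESC and was higher than in DMEF by 2.90 ± 0.92 (adjusted p = 0.0292), a call that was lost without either DMEF library or ESC replicate 2, and it did not differ detectably from CIMEF, where the libraries had 10.5 and 1.26 CPM. Col6a5, Col13a1 and Col22a1 were near absent from fibroblasts and low in ESC. Col6a5 had 76 counts in ESC, 2 in CIMEF and 0 in DMEF, a ratio of 34.3 (interval 9.17 to 288) to CIMEF and a level at least 25.7-fold higher than in DMEF, with 3 counts over both libraries taken as the limit that a count of 0 allows. Col13a1 had 33 counts in ESC, 0 in CIMEF and 1 in DMEF, a level at least 9.93-fold higher than in CIMEF and a ratio of 33.5 (interval 5.60 to 1361) to DMEF. Col22a1, a FACIT chain of muscle and tendon junctions, had 25 counts in ESC, 2 in CIMEF and 3 in DMEF, with ratios of 11.3 (interval 2.81 to 98.3) and 8.45 (interval 2.58 to 43.7). Col18a1 kept both of its calls in every fit that left out 1 library. Those of Col6a5 were kept too, but it was tested only through its ESC level, as were Col13a1 and Col22a1. Against DMEF the call of Col13a1 was lost without DMEF replicate 1 and that of Col22a1 without either DMEF library or ESC replicate 2.

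Genes that make, trim, link, break down and sense collagen were taken as 9 lists. The median log2 difference, CIMEF minus DMEF, was 1.18 for degradation and uptake, 0.90 for propeptide processing, 0.71 for receptors, 0.26 for basement membrane partners, 0.19 for protease inhibitors, -0.044 for regulators, -0.11 for folding and export, -0.19 for hydroxylation and glycosylation and -0.55 for crosslinking, beside 0.00 over all genes tested. Over all genes 19.5% were higher and 21.1% lower, and a list's count near those shares is not a result about the list. Of 14 hydroxylation and glycosylation genes tested, 1 passed as higher and 5 as lower in CIMEF, the 5 becoming 3 without either DMEF library. The prolyl 4-hydroxylase subunit P4ha2, which stabilises the triple helix, had 39.2 and 19.0 CPM in CIMEF, against 87.99 and 79.5 CPM in DMEF (log2 difference -1.52), the lysyl hydroxylase Plod3 had 111 and 109 CPM, against 206 and 216 CPM (-0.94), and P3h3 of the prolyl 3-hydroxylase family was the one higher (1.34). Of 9 folding and export genes, 2 were higher, Fkbp14 (1.17) and Mia3 (0.64), and 3 were lower, among them the collagen chaperone gene Serpinh1 at 962 and 1315 CPM in CIMEF, against 1812 and 2025 CPM in DMEF (-0.75), and Fkbp10 (-0.74). Without DMEF replicate 2 these counts were 1 higher and 1 lower, and the higher count was also 1 without either ESC library or with only the 2 lines compared. Of 8 propeptide processing genes tested, 4 were higher and 0 lower under edgeR, with 1 lower at an unadjusted p under 0.05, under DESeq2 and without either CIMEF library. The 4 became 2 without DMEF replicate 1 and 1 without DMEF replicate 2. Adamts3 (3.83), Adamts14 (1.62) and Adamts2 (1.52), which encode proteases that cut the amino ends of procollagens, were higher, as was Pcolce2 (2.10), whose relative Pcolce encodes an enhancer of the protease that cuts their carboxyl ends. Adamts3 had 15.0 and 54.6 CPM in CIMEF, against 2.88 and 2.03 CPM in DMEF.

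**Figure D5:**
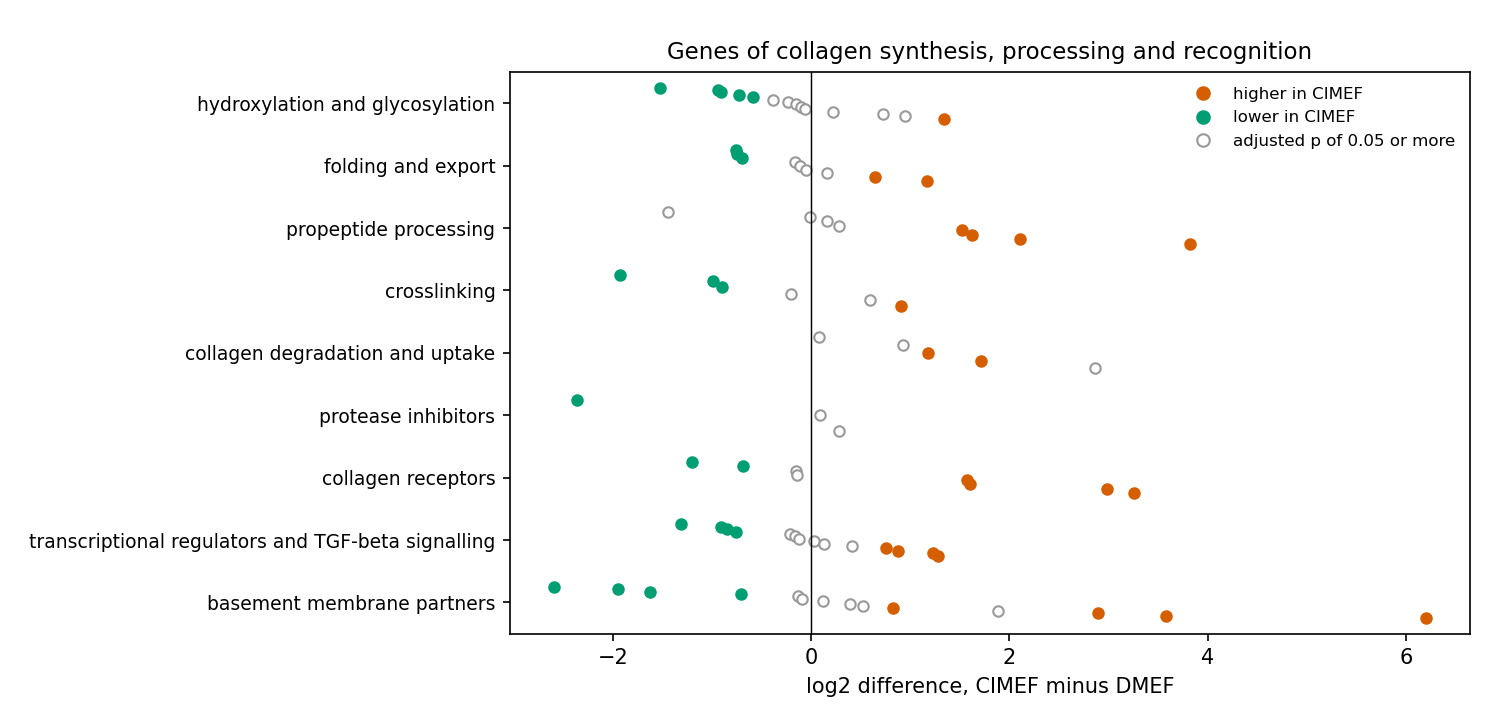
Fitted log2 difference, CIMEF minus DMEF, of 81 tested genes in 9 lists of collagen synthesis, processing and recognition, 1 circle per gene and filled where the adjusted p was under 0.05. Filled circles lie on both sides of 0 in 6 of the rows; propeptide processing has 4 filled circles and collagen degradation and uptake has 2, all to the right of 0, and protease inhibitors have 1, to the left, with Timp4 not drawn for its 3 counts in DMEF.

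Of the 6 crosslinking genes, the lysyl oxidase Lox was higher, at 4383 and 3856 CPM in CIMEF, against 2474 and 1907 CPM in DMEF (0.91), and Loxl4 (-1.93), Loxl3 (-0.99) and Loxl1 (-0.90) of the same family were lower. Without either DMEF library 1 was lower, and without DMEF replicate 2 the higher count was 0. Of 5 degradation and uptake genes tested, the gelatinase Mmp2, at 1143 and 1004 CPM in CIMEF, against 341 and 314 CPM in DMEF (1.71), and the endocytic collagen receptor Mrc2 (1.18) were higher and 0 were lower, also at an unadjusted p under 0.05 and under DESeq2. The higher count was 1 without DMEF replicate 2 and 5 without CIMEF replicate 2, and 1 was lower without CIMEF replicate 1. Of the 4 protease inhibitors, Timp1 was lower, at 29.3 and 53.2 CPM in CIMEF, against 185 and 239 CPM in DMEF (-2.36), and Timp4 was called higher under edgeR, though not under DESeq2 or without either ESC library, DMEF replicate 1 or CIMEF replicate 2, with 21 counts in CIMEF and 3 in DMEF. Timp4 passed the low-count filter through CIMEF alone, so its call supports nothing. Of 8 collagen receptors tested, 4 were higher, with the collagen-binding integrin genes Itga2 (3.26), Itga10 (2.99) and Itga1 (1.60) first, and 2 were lower. Itga2, with 81 counts in CIMEF and 9 in DMEF, was also kept through CIMEF alone, and its call supports nothing either. The higher count was 2 without DMEF replicate 1 and 1 without DMEF replicate 2, and the lower count ran from 0 without either DMEF library to 4 without CIMEF replicate 1. Of 14 transcriptional regulators and genes of TGF-beta signalling, a pathway that raises collagen transcription in fibroblasts, 4 were higher and 4 lower with Smad7 (-1.31), Creb3l2 (1.28) and Sox9 (1.23) the furthest from 0. The lower count was 2 with RLE scaling, under DESeq2 or without CIMEF replicate 1 or DMEF replicate 2, and 1 with only the 2 lines compared, without DMEF replicate 1 or without either ESC library. Of 14 laminin and other basement membrane partner genes tested, 4 were higher and 4 lower, and each count was 1 without either DMEF library; the lower one was 2 without ESC replicate 1. The laminin gene Lama3 had 19.1 and 15.7 CPM in CIMEF, against 0.200 and 0.258 CPM in DMEF (6.21), and Lama4 (3.59) and Lama2 (2.90) followed, the last with 317 and 32.8 CPM in the 2 CIMEF libraries.

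Most of these genes were also lower in ESC. Over all genes, 30.5% were lower in ESC than in DMEF and 37.7% lower than in CIMEF. Against DMEF, 13 of 14 hydroxylation and glycosylation genes, 7 of 9 folding and export genes, 6 of 6 crosslinking genes, 4 of 5 degradation genes, 3 of 4 inhibitors, 5 of 8 receptors, 10 of 14 regulators and 6 of 14 basement membrane partners were lower. Against CIMEF the counts were 11, 7, 6, 4, 2, 7, 11 and 8 in the same order. Of 8 propeptide processing genes, 4 were lower than in DMEF and 6 lower than in CIMEF. Lox had 34.7 and 43.0 CPM in ESC, with log2 differences of -6.73 against CIMEF and -5.82 against DMEF, and Serpinh1 had 133 and 133 CPM, with -3.10 and -3.85. P4hb, which is also the general disulfide isomerase, differed less, at 830 and 794 CPM in ESC, 838 and 910 CPM in CIMEF and 1395 and 1493 CPM in DMEF (-0.83 against DMEF, adjusted p = 0.00159). Among the genes higher in ESC than in DMEF were Klhl12 (0.98), Mep1b (6.39), Pcolce2 (3.23) and the basement membrane partners Lama1 (3.96), Lama3 (3.61) and Agrn (1.69). Mep1b had 350 counts in ESC, 4 in CIMEF and 4 in DMEF. It passed the low-count filter through ESC alone, so its call supports nothing. Lama1, a laminin chain of the early embryo, had 63.6 and 61.9 CPM in ESC, 24.7 and 5.18 CPM in CIMEF and 4.84 and 3.25 CPM in DMEF. Lamc1, the common laminin gamma chain, had 607 and 605 CPM in ESC, 543 and 637 CPM in CIMEF and 572 and 510 CPM in DMEF, and did not pass in any contrast, with adjusted p-values from 0.356 to 0.816.

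The microRNA family miR-29 is known to repress collagen mRNAs in fibroblasts, so its members were read from the input small-RNA libraries of the same lines. The mature sequences, from RefSeq on GRCm38.p6, are shown because all 3 members share 1 seed, bases 2 to 8 in capitals.
miR-29a-3p (chr6:31062673-31062694, minus strand): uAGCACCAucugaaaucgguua
miR-29b-3p (chr6:31063025-31063047, minus strand, and chr1:195037091-195037113, plus strand): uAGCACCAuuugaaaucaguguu
miR-29c-3p (chr1:195037600-195037621, plus strand): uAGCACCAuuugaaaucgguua
Counts were summed over the input libraries of each of the 2 time courses per line, cells that had been given the uridine analogue 5-ethynyluridine for differing times, and divided by the total miRNA count. MiR-29a-3p had 372 and 304 CPM in ESC, 28111 and 14443 in CIMEF and 34312 and 40917 in DMEF. MiR-29b-3p had 201 and 156 CPM in ESC, 19042 and 5236 in CIMEF and 14265 and 17278 in DMEF. MiR-29c-3p had 56.5 and 91.2 CPM in ESC, 657 and 1229 in CIMEF and 488 and 1056 in DMEF. All 3 were lowest in ESC, and the CIMEF and DMEF courses overlapped for miR-29b-3p and miR-29c-3p. These are levels without a test, and seed matches in the collagen mRNAs were not counted. Whether miR-29 has a part in the collagen levels of any line was not tested.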

How the data were processed

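The authors deposited read counts, 1 whole number per gene or miRNA and library with no normalization, and these counts were used as deposited. Per the submitters' processing notes, cutadapt, STAR 2.4, HTSeq 0.9.1 and the mouse genome mm10/GRCm38 were used, with roles not given. Per the labels' protocols, poly(A) RNA was made into directional libraries and read as 40 nt single ends. Whether counting used strand is not given in the sources used here, so overlapping genes on opposite strands, such as Col4a1 and Col4a2 at their starts, may share reads. The reference tables gave a symbol for 54409 of 54532 identifiers.

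The 6 mRNA libraries were fitted together with edgeR 4.0.16 in R 4.3.3 (filterByExpr, TMM scaling, glmQLFit and glmQLFTest), and p-values were adjusted by Benjamini-Hochberg over 18094 genes. The code was tested on simulated data. Standard errors were derived from the F statistic. Replicates of a line differed far beyond counting noise, so none was counted as a duplicate. Alternatives were DESeq2 1.42.0, other scalings and filters, a replicate block and leaving out each library. The members, classes and gene lists were chosen with earlier results of these data known. Values per library were given for the most abundant genes of each class by CPM, not scaled by length, for the 4 most positive and most negative called collagens of a contrast and for chain partners; up to 3 called genes per list were named by the size of their difference. Where names go beyond that they were chosen after their values were seen. Folds of single collagens against a line with 3 or fewer counts were taken from counts, while class medians and the ranges over fits that leave out a library are fitted values. The medians take in members that passed the low-count filter through 1 line alone. Exact binomial intervals at 95% cover counting error only. The knockout and pulldown small-RNA libraries were not used here.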

Additional observations from a re-analysis of the deposited data

How the results depend on the processing

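Same-numbered libraries did not deviate together (correlations of 0.0294 for CIMEF and DMEF, -0.00416 for CIMEF and ESC, and -0.00781 for DMEF and ESC), so the numbers were not taken as pairs. Under a replicate block, 18 collagens passed as higher and 7 as lower for CIMEF minus DMEF, 5 and 25 for ESC minus DMEF, and 4 and 28 for ESC minus CIMEF. Leaving out each library in turn, the count higher in CIMEF than in DMEF ran from 4 to 20, and the count higher in ESC than in DMEF from 2 to 6, with 3 under DESeq2. Class medians of CIMEF minus DMEF ran from -0.061 to 0.40 for basement membrane, 0.45 to 1.22 for fibrillar and 0.81 to 1.61 for other collagens. Class medians of ESC minus DMEF ran from -6.34 to -5.68 for basement membrane collagens and -3.11 to -2.88 for other collagens. Class medians of ESC minus CIMEF ran from -6.57 to -5.66 for basement membrane collagens and -5.48 to -4.29 for other collagens. With only the libraries of the 2 lines compared, the fibrillar median for ESC minus DMEF was -5.17, with fewer collagens tested. By effective library size, the total after TMM scaling, the mean collagen share was 3.28% in CIMEF and 3.00% in DMEF. As a percent of all gene counts it was 3.28% and 2.65%. Single collagens whose sign turned when a library was left out had these ranges of log2 difference, and the cause was not tested. For CIMEF minus DMEF, they were Col11a1 from -0.27 to 1.76, Col1a1 from -0.008 to 0.40, Col22a1 from -3.64 to 0.44 (fitted on 2 and 3 counts, so no measure of a fold), Col4a1 from -0.55 to 0.043, Col4a2 from -0.41 to 0.21, Col4a6 from -0.45 to 3.23 and Col8a1 from -1.001 to 1.23. For ESC minus DMEF, they were Col17a1 from -0.27 to 1.5 and Col23a1 from -0.77 to 0.27. For ESC minus CIMEF, they were Col17a1 from -1.12 to 0.096, Col26a1 from -4.26 to 1.83, Col7a1 from -1.96 to 0.51 and Col9a2 from -0.87 to 2.11. Col9a2 for ESC minus CIMEF was 0.001 with only the 2 lines compared and 0.519 under the replicate block. With RLE scaling the 37 collagens tested, and with collagens left out of the scaling the 36 then tested, kept their direction and side of the threshold in all 3 contrasts. The ratio Col9a1/Col9a2 could not be formed because Col9a1 had 1 count in all, and ratios per exon length were not run because no exon lengths were at hand. Lone libraries in fits that leave 1 out were assumed to vary like the other lines. With 2 libraries a line, depth limits members under about 10 counts, for which a missed call says nothing.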
